A study of Mus musculus with 10 samples.

Results

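The genes described here are 10 immediate early genes outside the AP-1 family, namely the zinc finger factors Egr1, Egr2 and Egr3, the orphan nuclear receptors Nr4a1, Nr4a2 and Nr4a3, the immediate early response genes Ier2, Ier3 and Ier5, and the antiproliferative factor Btg2. They were chosen by name, and each symbol matched 1 of the 55421 genes of the count table, so all 10 were found. RNA had been sequenced from the myeloid cells of mice 15 days after inoculation with MC17-51, a fibrosarcoma line. In Shp2f/f mice the gene of the tyrosine phosphatase SHP-2, Ptpn11, is floxed, and Shp2f/fLysMcre mice carry the same floxed gene together with Cre recombinase under the Lyz2 (lysozyme M) promoter, which is active in monocytes, macrophages and neutrophils. The 10 libraries formed 4 groups: MDSC from Shp2f/f (n = 2), MDSC from Shp2f/fLysMcre (n = 2), TAM from Shp2f/f (n = 3) and TAM from Shp2f/fLysMcre (n = 3).

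MDSC (myeloid-derived suppressor cells) were gated as the Ly6G+ Ly6C- subset and isolated with magnetic beads from spleens pressed through strainers. TAM (tumor-associated macrophages) were sorted as CD45+ CD11b+ F4/80+ Ly6G- cells from tumors digested with collagenase. Every group was therefore tumor-bearing, and no cells from tumor-free mice were part of the comparison. Cell type, organ, enzyme digestion and way of isolation changed together between MDSC and TAM and cannot be told apart. By the paper, TAM were isolated from the same mice as MDSC, but the labels do not say which libraries share a mouse. Tests over both cell types treated the libraries as independent. The labels also do not say whether 1 library is 1 mouse, so p-values measure the spread between these libraries.

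Immediate early genes are transcribed within minutes of a stimulus and need no new protein synthesis, because the factors that switch them on are already in the nucleus. Growth factor and stress signals reach them through the RAS-ERK pathway, of which SHP-2 is a known positive regulator, and through the p38, cAMP and calcium pathways. The transcripts are short-lived, and in macrophages they respond to inflammatory ligands, to growth factors such as CSF1, and to the handling of the cells, including enzymatic digestion.

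Total counts ran from 28844660 to 38222998 per library, which gave each gene described here at least 31 counts in every library. Levels are given in CPM, the read count scaled to a common library total with TMM factors over all 10 libraries, and a gene was called when its adjusted p from edgeR's quasi-likelihood test was under 0.05. Fold changes between genotypes were fitted within a cell type, whose own scaling moved them by at most 0.037 on the log2 scale from a fit of all libraries. The genotype labels were checked first. Ptpn11 averaged 122 ± 2.39 CPM (SD, n = 3) in TAM from Shp2f/f and 53.0 ± 1.82 CPM (n = 3) in TAM from Shp2f/fLysMcre, a log2 fold change of -1.24. In MDSC, Ptpn11 averaged 106 ± 9.88 CPM and 87.3 ± 10.6 CPM (n = 2 each), and the log2 difference of -0.29 was not called (edgeR adjusted p = 0.361). Lyz2, the locus named by the Cre line, averaged 9214 CPM in MDSC from Shp2f/f and 45.2 CPM in MDSC from Shp2f/fLysMcre.

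The cell labels were set against defining markers. Macrophage markers (10 genes) summed to between 13667 and 21368 CPM of the total count in TAM and to between 2785 and 3398 CPM in MDSC. In MDSC the neutrophil markers (10 genes) summed to between 9196 and 9494 CPM in Shp2f/f and to between 27281 and 30860 CPM in Shp2f/fLysMcre, and none was at 0. Ly6g itself was low, at 8.92 and 11.9 CPM in MDSC from Shp2f/f and at 29.8 and 33.2 CPM in MDSC from Shp2f/fLysMcre, beside 1031 to 1442 CPM of the macrophage receptor Csf1r. Monocyte markers (6 genes) summed to between 8074 and 10719 CPM in MDSC and to between 1736 and 1988 CPM in TAM, and B cell markers (6 genes) to between 1076 and 2102 CPM in MDSC and to between 14.3 and 26.9 CPM in TAM. The MDSC libraries thus held transcripts of monocytes, macrophages and B cells beside those of neutrophils. Replicate 2 of MDSC from Shp2f/fLysMcre stood apart, with fibroblast and tumor markers at 674 CPM against 7.82 to 26.9 CPM in the other 3 MDSC libraries. Pancreas markers summed to between 840 and 6614 CPM in TAM from Shp2f/f and to between 18.7 and 86.2 CPM in TAM from Shp2f/fLysMcre. The female transcript Xist was at 0.029 CPM in each MDSC library of Shp2f/f and at 119 and 132 CPM in those of Shp2f/fLysMcre. In TAM it ran from 4.82 to 18.1 CPM in Shp2f/f and from 209 to 372 CPM in Shp2f/fLysMcre, while the Y-linked Ddx3y ran from 50.6 to 85.6 CPM in the 5 libraries of Shp2f/f and from 22.3 to 44.7 CPM in the 5 of Shp2f/fLysMcre. The share of female RNA and the genotype therefore moved together and cannot be told apart. Fewer cells of a type and less RNA per cell cannot be told apart in bulk libraries.

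The genes share features that the choice of symbols did not use. Of the 10, 7 have at most 2 exons in their principal transcript, as do 7.34% of the 13649 protein-coding genes tested. The 3 NR4A genes have 8 exons, near the median of 9. Ier3 spans 1240 bp and Nr4a3 41295 bp, with a median of 5287 bp over the 10 genes against 23564 bp over the coding genes tested. ATTTA, the core of the AU-rich elements known from unstable transcripts, occurred at least 2 times in the 3′ UTR of 9 of the 10 genes, against 46.5% of the coding genes. Egr3 had 7 copies and Ier2 had 0. No other annotated gene overlapped any of the 10 on either strand, so no annotated antisense neighbour was seen that could add to their counts. Unannotated transcripts were not checked.

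The stretch before the start site was read from the RefSeq promoters of GRCm38.p6 for 7 of the 10 genes, and Egr1, Egr3 and Ier2 were not used here. Both strands were searched for 6 motifs. TGACG, the core of the cAMP response element, stood before 5 of the 7 starts (Nr4a1, Nr4a2, Nr4a3, Egr2 and Btg2), against 21% of 27025 promoters searched in the same way. The full palindrome TGACGTCA, which contains TGACG, stood before Btg2 alone (1.85% of promoters). A CArG box (CC, then 6 of A or T, then GG), the site of serum response factor, stood before Egr2 alone (1.55%). The EGR site (GCGGGGGCG or GCGTGGGCG) was found for Nr4a1 (3.52%) and TATAAA for Nr4a2 (14.2%), whereas the NR4A site AAAGGTCA was found for none of the 7 (1.47%). These are matches of letters, with no binding measured here. The 3 NR4A stretches are shown because these genes split by direction in TAM, and those of Egr2 and Btg2 because they hold the CArG box and the full palindrome. Each is written in lower case in the direction of transcription up to the base before the RefSeq start, with motif matches of either strand in capitals. They lie at chr15:101266596-101266845 (+ strand), chr2:57124004-57124253 (- strand), chr4:48045055-48045152 (+ strand, cut to the bases outside an annotated exon), chr10:67537619-67537868 (+ strand) and chr1:134079156-134079405 (- strand). The starts used for Nr4a1 and Nr4a2 lie 12577 and 8965 bp from the start of the principal transcript in the annotation, so they belong to other transcripts of these genes.
Nr4a1: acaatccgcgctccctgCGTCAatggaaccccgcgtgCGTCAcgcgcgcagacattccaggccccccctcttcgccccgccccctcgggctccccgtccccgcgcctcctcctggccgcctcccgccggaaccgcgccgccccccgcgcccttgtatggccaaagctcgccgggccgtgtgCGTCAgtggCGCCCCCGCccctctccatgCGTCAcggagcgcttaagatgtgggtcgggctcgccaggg
Nr4a2: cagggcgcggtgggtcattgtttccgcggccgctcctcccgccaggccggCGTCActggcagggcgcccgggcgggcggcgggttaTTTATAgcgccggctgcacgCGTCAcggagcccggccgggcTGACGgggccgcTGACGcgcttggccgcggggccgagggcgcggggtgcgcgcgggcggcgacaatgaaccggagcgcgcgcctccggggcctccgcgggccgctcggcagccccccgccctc
Nr4a3: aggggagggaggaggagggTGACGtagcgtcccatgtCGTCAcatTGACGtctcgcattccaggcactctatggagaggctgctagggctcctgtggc
Egr2: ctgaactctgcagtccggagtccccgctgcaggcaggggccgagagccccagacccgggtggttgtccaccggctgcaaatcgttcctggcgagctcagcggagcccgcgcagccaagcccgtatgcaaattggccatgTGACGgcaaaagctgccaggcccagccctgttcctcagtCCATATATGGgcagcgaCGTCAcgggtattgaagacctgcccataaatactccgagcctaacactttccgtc
Btg2: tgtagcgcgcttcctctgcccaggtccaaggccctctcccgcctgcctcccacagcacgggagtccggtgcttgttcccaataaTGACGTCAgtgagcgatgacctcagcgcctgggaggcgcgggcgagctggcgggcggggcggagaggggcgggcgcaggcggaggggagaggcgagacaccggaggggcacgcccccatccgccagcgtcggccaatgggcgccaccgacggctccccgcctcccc

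Comparing the genotypes within TAM asked how these genes differed in tumor macrophages between Shp2f/fLysMcre and Shp2f/f mice. Lyz2 averaged 3521 CPM in TAM of Shp2f/f and 11.15 CPM in TAM of Shp2f/fLysMcre. No group carried Cre without the floxed gene, so the loss of SHP-2, the presence of Cre and the low Lyz2 cannot be told apart. All 10 were called, 7 higher and 3 lower in Shp2f/fLysMcre, and in each of the 10 the 3 libraries of Shp2f/fLysMcre did not overlap the 3 of Shp2f/f. Egr1, Egr2, Nr4a1, Ier2, Ier3, Ier5 and Btg2 rose, by between 1.15 and 1.90-fold. Egr3, Nr4a2 and Nr4a3 fell, so that the EGR and NR4A families each held members of both directions.

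The background in TAM was high. Of 14446 genes tested, 50.2% were called, 23.9% higher and 26.3% lower, and for 57.9% the libraries of the genotypes did not overlap. Among well expressed genes (average over TAM of 10 CPM or more, which all 10 genes reached), 62.8% were called. The count of 10 stood above these shares, but a call in TAM was by itself common. The sizes were larger than usual: the median absolute log2 fold change was 0.56 over the 10 genes and 0.24 over all genes tested, and the median of the signed values was 0.46 against -0.01.

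Egr1 encodes the founding member of the EGR family and is an ERK target induced by serum. Its level was 340, 362 and 357 CPM in the TAM libraries of Shp2f/f, and 654, 670.5 and 638 CPM in those of Shp2f/fLysMcre. The lowest library of the second group stood well above the highest of the first, and the log2 fold change was 0.85 ± 0.038 (SE, edgeR adjusted p = 3.42e-08). Egr2, a relative linked to macrophage and lymphocyte activation states, was at 78.6, 81.6 and 82.6 CPM in Shp2f/f and at 113, 106 and 105 CPM in Shp2f/fLysMcre. The groups were again apart, with a smaller log2 fold change of 0.38 ± 0.041 (adjusted p = 1.76e-05). Egr3, which in lymphocytes acts with Egr2, went the other way, from 19.7, 18.9 and 19.0 CPM to 14.7, 14.2 and 15.4 CPM. Its log2 fold change was -0.41 ± 0.057 (adjusted p = 0.000115), and it had the lowest level per kilobase of the 10 genes in TAM.

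The NR4A genes encode nuclear receptors without a known physiological ligand, and Nr4a1 is the member best known from monocytes and macrophages. Nr4a1 was the most abundant of this family per kilobase in every group, and its level was 566, 581 and 575 CPM in TAM of Shp2f/f and 722, 667 and 646 CPM in TAM of Shp2f/fLysMcre. The libraries did not overlap, although its log2 fold change of 0.21 ± 0.044 (adjusted p = 0.00228) was the smallest of the 10 in absolute size. Nr4a2 fell from 198, 185 and 190 CPM to 121, 130 and 134 CPM, a log2 fold change of -0.60 ± 0.049 (adjusted p = 1.97e-06). Nr4a3 fell from 104, 108 and 108 CPM to 72.4, 75.2 and 82.4 CPM, a log2 fold change of -0.51 ± 0.049 (adjusted p = 7.83e-06). Nr4a2 and Nr4a3 thus lay lower in every Shp2f/fLysMcre library than in any Shp2f/f library, while Nr4a1 lay higher.

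The 3 IER genes are named for their rapid induction rather than for a shared sequence, except that Ier2 and Ier5 are related to each other. Ier2, a small nuclear protein, was at 181, 189 and 177 CPM in TAM of Shp2f/f and at 303, 275 and 262 CPM in TAM of Shp2f/fLysMcre, a log2 fold change of 0.58 ± 0.052. Ier3, which modulates survival and ERK signaling, rose from 217, 226 and 214 CPM to 410, 437 and 397 CPM, a log2 fold change of 0.89 ± 0.042. Ier5, linked to the heat shock factor HSF1, rose from 333, 358.5 and 339 CPM to 532, 510 and 491 CPM, a log2 fold change of 0.54 ± 0.042. All 3 rose in every library, with edgeR adjusted p-values between 5.48e-08 and 4.49e-06. Btg2, a p53 target that slows the cell cycle and promotes deadenylation of mRNA, showed the largest change of the 10, from 262, 274.5 and 267 CPM to 555, 520 and 487 CPM. Its log2 fold change was 0.92 ± 0.048 (adjusted p = 8.54e-08).

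**Figure D1:**
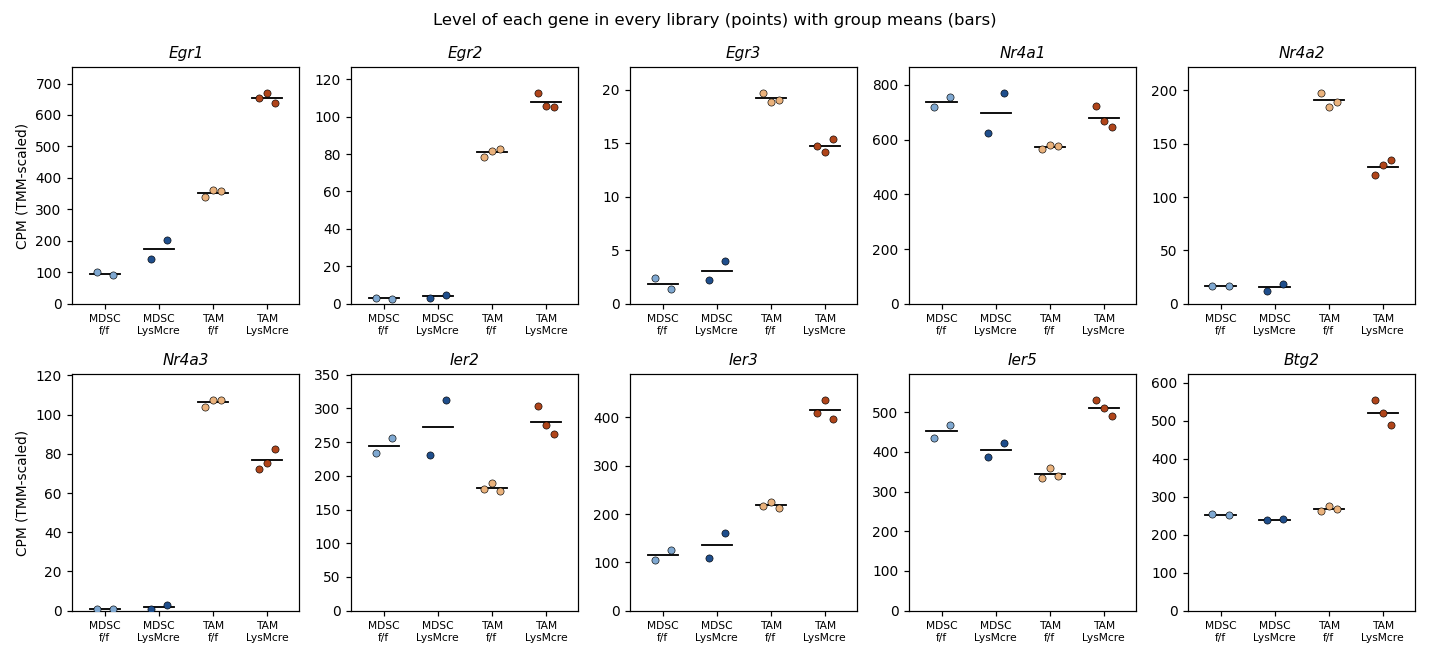
Level of each of the 10 genes in every library, in CPM after TMM scaling, on axes that start at 0; points are libraries (2 per MDSC group, 3 per TAM group) and bars are group means. Egr3, Nr4a2 and Nr4a3 were lower and the other 7 genes higher in TAM from Shp2f/fLysMcre than in TAM from Shp2f/f, and Egr2, Nr4a2 and Nr4a3 were far lower in MDSC than in TAM.

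Leaving out any 1 TAM library, or using any other scaling or filter tried, kept the direction of all 10 genes in TAM. Scaling by the total count moved the median of all genes to -0.11 on the log2 scale, and Nr4a1 then differed by 0.11. A single fit of all 10 libraries, whose biological coefficient of variation was 0.141 against 0.0595 within TAM, left 8 of the 10 called, and Egr3 (adjusted p = 0.178) and Nr4a3 (adjusted p = 0.0928) were no longer called.

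Ratios inside 1 library do not depend on scaling between libraries and were taken from counts per kilobase of exon. Nr4a2 was at 0.302, 0.275 and 0.285 of the Nr4a1 level in TAM of Shp2f/f and at 0.145, 0.169 and 0.180 in TAM of Shp2f/fLysMcre. The ratio of Nr4a3 to Nr4a1 was 0.107, 0.109 and 0.110 in Shp2f/f and 0.0588, 0.0661 and 0.0747 in Shp2f/fLysMcre. Relative to Nr4a1, both receptors were lower in every library of the second genotype, by 1.75-fold and 1.63-fold on average. For Egr3 to Egr1 the ratio was 0.0590, 0.0529 and 0.0543 in Shp2f/f and 0.0229, 0.0216 and 0.0247 in Shp2f/fLysMcre, 2.40-fold lower on average. For Egr2 to Egr1 it was 0.305, 0.297 and 0.305 against 0.227, 0.208 and 0.217, 1.39-fold lower, although Egr2 itself had risen. The 4 ratios were chosen after the levels had been seen, and an exact two-sided permutation test of 3 against 3 libraries gave p = 0.1 for each, the smallest value that it allows.

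**Figure D2:**
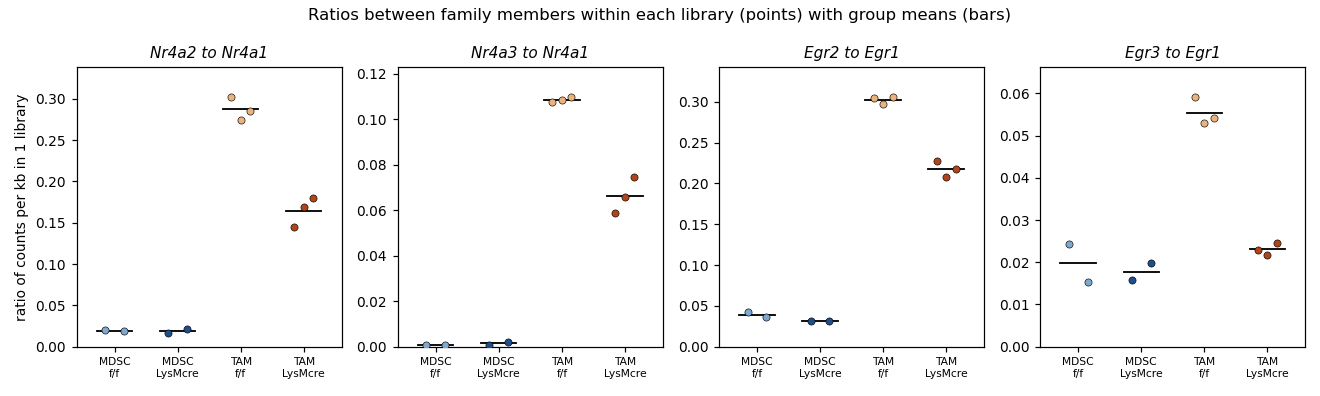
Ratio of counts per kilobase between 2 members of a family within each library, for Nr4a2 and Nr4a3 against Nr4a1 and for Egr2 and Egr3 against Egr1, with points for libraries and bars for group means. All 4 ratios were lower in each TAM library from Shp2f/fLysMcre than in any from Shp2f/f, and the NR4A ratios of MDSC lay near 0.

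The relatives and corepressors of these genes were followed as a fixed group of 8. Of the 7 tested in TAM, 3 rose, 0 fell and 4 were not called, with a median log2 fold change of 0.49. Nab2, a corepressor that binds EGR proteins and is itself an EGR target, rose from 29.3 ± 0.855 to 42.1 ± 1.06 CPM (log2 fold change 0.49, edgeR adjusted p = 5.97e-06). Nab1, its paralog, was at 123 CPM in both genotypes. Of the BTG and TOB family, Btg1 rose from 805 ± 20.8 to 1199 ± 31.1 CPM and Tob1 from 24.3 ± 1.57 to 40.5 ± 0.677 CPM. Tob2 and Btg3 were not called, at log2 differences of 0.10 and 0.03, nor was Ier5l at 0.56 (adjusted p = 0.055). Egr4 was too low to be tested.

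Other rapid response genes moved in TAM at the same time. Of 9 AP-1 genes, 8 rose and 1 fell, with a median of 0.66. Jun rose from 404 ± 12.1 to 1005 ± 45.8 CPM and Atf3 from 299 ± 4.01 to 748 ± 20.3 CPM, whereas Fosl1 fell by 0.22 on the log2 scale. Of 30 other immediate early genes, 23 rose and 3 fell, with a median of 0.39. Klf2, a quiescence factor, rose by 2.01 on the log2 scale from 81.1 to 334 CPM, and Dusp1, a phosphatase that switches off MAP kinases, by 1.13 from 790 to 1768 CPM. Ccn1 (-0.38) and Bhlhe40 (-0.37) had the largest falls. Of 20 upstream regulators (kinases and factors that act on immediate early genes), 13 rose and 2 fell, with changes of at most 0.47, reached by the SRF cofactor Mrtfa.

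Signs of handling were measured in the same libraries. Of 30 genes known to respond to tissue dissociation, with the 10 genes described here removed, 19 rose and 7 fell in TAM of Shp2f/fLysMcre, with a median of 0.57, and this list shares 6 genes with the AP-1 list, 6 with the other immediate early genes and 10 with the heat shock list. Their summed level was between 16611 and 17121 CPM in TAM of Shp2f/f and between 22635 and 22857 CPM in TAM of Shp2f/fLysMcre. Of the 13 heat shock genes, 4 were called higher and 8 lower, with a median of -0.22, and 6 of the 7 falls in the dissociation list were heat shock genes. Within them, Hspa1a rose by 1.91 and Hspa1b by 1.23 on the log2 scale, while Hspd1 fell by 0.75 and Hsp90ab1 by 0.55. The mitochondrial share of the counts was between 1.04% and 1.10% in TAM of Shp2f/f and between 0.552% and 0.936% in TAM of Shp2f/fLysMcre, without overlap. TAM of both genotypes had been digested, and the part of digestion and of RNA quality in these differences was not tested. The 18 proliferation genes all fell (median -0.86), and macrophage markers all rose (10 of 10, median 0.65). Neutrophil markers summed to between 4327 and 4550 CPM in TAM of Shp2f/f and to between 2223 and 2280 CPM in TAM of Shp2f/fLysMcre, although 4 of the 9 tested were called higher and 1 lower. Markers of NK cells (6 of 6 fell) and T cells (6 of 7 fell) were rare, summing to at most 14.4 and 14.0 CPM in any TAM library. Pancreas markers also moved (3 fell and 1 rose of 4 tested), and the part of these shifts in the levels of the 10 genes was not tested. Without replicate 3 of TAM from Shp2f/f, the library with 6614 CPM of pancreas markers, all 10 genes were still called in the same directions.

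**Figure D3:**
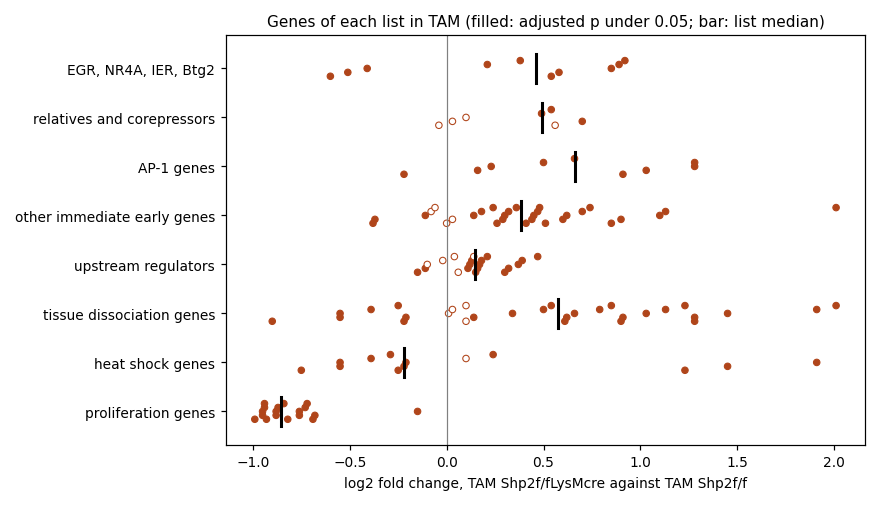
Log2 fold change of Shp2f/fLysMcre against Shp2f/f in TAM for each tested gene of 8 lists, on the x axis; filled points passed the adjusted p of 0.05, open points did not, and black bars are list medians. The immediate early lists had medians between 0.39 and 0.66, heat shock genes -0.22 and proliferation genes -0.86.

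The same comparison within MDSC called 0 of the 10 genes. The background was 4.28%, or 633 of 14806 genes, and in 48.9% of genes the 2 libraries of each genotype did not overlap, as held for 4 of the 10 (Egr1, Egr2, Ier5 and Btg2). At an unadjusted p under 0.05, edgeR gave 1 of the 10, Egr1, against 19.3% of all genes, and DESeq2 called the same gene after adjustment, against 8.48% of all genes. The median log2 difference of the 10 was 0.18 against -0.01 over all genes, and the median absolute difference of 0.19 was close to the 0.20 of all genes tested.

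Egr1 was at 101 and 90.6 CPM in MDSC of Shp2f/f and at 142 and 203 CPM in MDSC of Shp2f/fLysMcre. The libraries did not overlap, and the log2 difference of 0.85 ± 0.19 was the same as in TAM but was not called (edgeR quasi-likelihood test, adjusted p = 0.0816). Over the alternatives its adjusted p ran from 7.65e-05 to 0.953, and without either replicate of Shp2f/fLysMcre it was called, with differences of 1.04 and 0.57, in fits that called 27.2% and 18% of all genes. The other EGR genes were sparse in MDSC, with Egr2 at 3.19 and 2.51 against 3.36 and 4.91 CPM and Egr3 at 2.41 and 1.36 against 2.195 and 3.96 CPM.

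Nr4a1 was abundant in MDSC, at 718.5 and 754 CPM in Shp2f/f and at 624 and 771 CPM in Shp2f/fLysMcre, and the genotypes overlapped. Nr4a2 was at 16.4 and 16.7 CPM against 12.3 and 18.7 CPM, a log2 difference of -0.10. This difference was -0.423 without replicate 2 of Shp2f/fLysMcre and 0.130 without replicate 1. Nr4a3 was near the lower limit of these libraries, at 31 and 36 counts in Shp2f/f and 32 and 120 counts in Shp2f/fLysMcre. Its higher value came from replicate 2, the library with the fibroblast and tumor markers, and without that library the log2 difference turned from 0.99 to -0.16. Without replicate 1 of Shp2f/fLysMcre it was 1.585. Replicate 2 was also the higher of the pair for each of the 10 genes.

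Ier2 was at 234 and 255 CPM in MDSC of Shp2f/f and at 231 and 313 CPM in MDSC of Shp2f/fLysMcre, and Ier3 at 105 and 126 against 108.5 and 162 CPM. Without replicate 2 the log2 differences of Ier2 and Ier3 turned from 0.15 to -0.08 and from 0.22 to -0.09. Ier5 (435 and 468 against 388 and 422 CPM) and Btg2 (254 and 251.5 against 237 and 242 CPM) were the 2 genes with lower values in both Shp2f/fLysMcre libraries than in either Shp2f/f library. Neither difference was called (log2 differences of -0.16 and -0.08, adjusted p = 0.542 and 0.762). Neutrophil markers (6 of 10 called higher), proliferation genes (15 of 18 called higher) and erythroid markers (7 of 8 called higher) differed between the genotypes in MDSC. B cell markers (2 of 6 called lower) and pancreas markers (2 of 6 called lower) went the other way. The part of these shifts in the levels of the 10 genes was not tested.

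**Figure D4:**
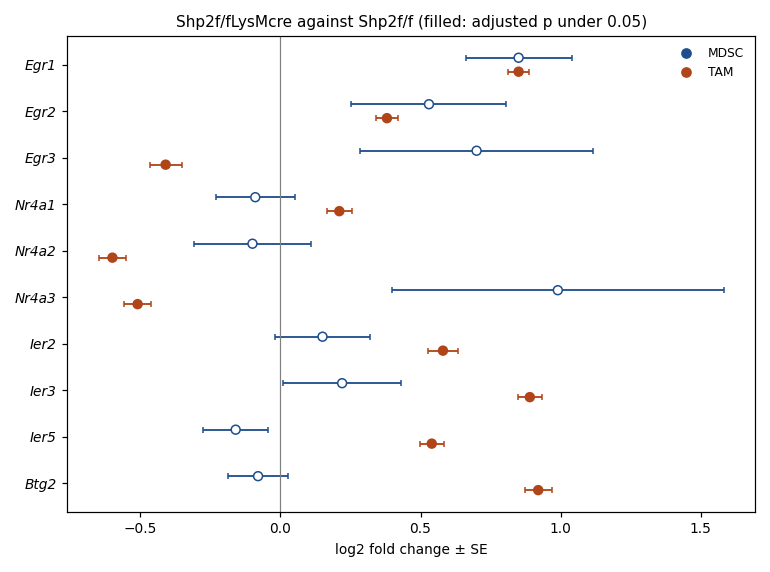
Log2 fold change of Shp2f/fLysMcre against Shp2f/f for each gene in MDSC (blue) and TAM (brown), with bars of 1 SE from edgeR; filled points passed the adjusted p of 0.05. All 10 points of TAM and none of MDSC were filled, and the bars of MDSC were wider.

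Whether the genotype effects differed between the cell types was tested as the difference of the differences, over all 10 libraries. Of the 10 genes 4 were called, against a background of 24.9% of 16581 genes. Over all genes, 12.2% were called with a higher log2 fold change in TAM than in MDSC and 12.7% with a lower one. Btg2 had the clearest difference, with a log2 fold change higher in TAM by 1.04 ± 0.091 (edgeR adjusted p = 4.89e-05). Ier5 followed with 0.73 ± 0.096 (adjusted p = 0.000528). These 2 genes were called under each of the 18 alternatives. Ier3 (0.69, adjusted p = 0.0339) and Egr3 (-1.09, adjusted p = 0.045) were called less firmly and lost their call when any 1 of the 6 TAM libraries was left out (adjusted p from 0.0545 to 0.0789 and from 0.0745 to 0.0951). Both also lost it without replicate 2 of MDSC from Shp2f/f (adjusted p = 0.122 and 0.187), and Egr3 without replicate 2 of MDSC from Shp2f/fLysMcre (adjusted p = 0.133). Leaving out either MDSC library of Shp2f/fLysMcre raised the count to 6, with Nr4a2 and Nr4a3 called lower without replicate 1, and Egr1, Nr4a1 and Ier2 called higher without replicate 2. The share of all genes called in these fits was 39% without replicate 1 and 25.4% without replicate 2. For Egr1 the effects differed by 0.04 ± 0.18 (adjusted p = 0.921), which leaves room for a difference in either direction. The falls of Nr4a2 and Nr4a3 in TAM were not shown to be absent from MDSC (differences of -0.48 and -1.49, adjusted p = 0.102 and 0.0529). Ptpn11 was itself called in this test, with a difference of -0.92 ± 0.12 (edgeR adjusted p = 0.00045). The genotypes thus differed less in Ptpn11 transcript in MDSC than in TAM, and the part of this in the differences of the 10 genes was not tested.

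Comparing TAM with MDSC of the same genotype gave the largest values, in a contrast that also holds organ and digestion. In Shp2f/f, 6 of the 10 genes were called higher and 3 lower in TAM, while 69.6% of 16581 genes were called (35.1% higher, 34.6% lower). In Shp2f/fLysMcre, 8 were called higher and 0 lower, with a background of 68.9% (32.3% higher, 36.6% lower). The medians of the 10 log2 differences were 1.40 and 1.77, against 0.00 and -0.07 over all genes. The 2 contrasts use different libraries.

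Nr4a3 had the widest gap, averaging 0.970 CPM in MDSC and 106 CPM in TAM of Shp2f/f, 109-fold higher in TAM, and 1.94 against 76.7 CPM in Shp2f/fLysMcre, 38.9-fold higher. The second value rested on the MDSC libraries of Shp2f/fLysMcre: on the log2 scale it was 5.28, and it was 6.454 without replicate 2, the library with the fibroblast and tumor markers, and 4.674 without replicate 1. Egr2 was 28.3-fold and 25.9-fold higher in TAM, Nr4a2 11.5-fold and 8.29-fold, and Egr3 10.2-fold and 4.78-fold. Egr1 was higher by 3.69-fold and 3.79-fold and Ier3 by 1.90-fold and 3.07-fold. For these 6 genes every TAM library exceeded every MDSC library, and edgeR adjusted p-values were at most 0.000332 in both genotypes.

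The other 4 genes did not follow this pattern. Nr4a1, Ier2 and Ier5 were lower in TAM than in MDSC in Shp2f/f, by 1.28-fold, 1.34-fold and 1.31-fold, with adjusted p-values of 0.0047, 0.00837 and 0.000498. In Shp2f/fLysMcre neither Nr4a1 (log2 difference -0.04) nor Ier2 (0.04) was called, and Ier5 was higher in TAM by 0.33 on the log2 scale. Btg2 was not called in Shp2f/f (253 against 268 CPM, adjusted p = 0.267) and was 2.17-fold higher in TAM in Shp2f/fLysMcre. Without replicate 2 of MDSC from Shp2f/f the call of Ier2 in Shp2f/f was lost (adjusted p = 0.0653), and without replicate 2 of MDSC from Shp2f/fLysMcre Ier2 was called higher in TAM there (0.27, adjusted p = 0.0207). Without replicate 1 of that group Nr4a1 was called lower in TAM (-0.18, adjusted p = 0.0468). Scaling by the total count, which moved the median of all genes to -0.26 in this contrast, made Nr4a1 lower in TAM (-0.24, adjusted p = 0.0487) and ended the call of Ier5.

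**Figure D5:**
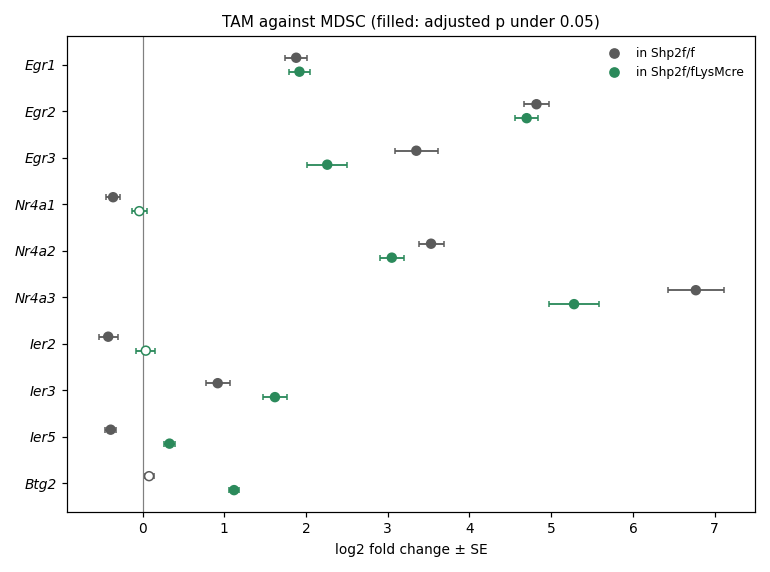
Log2 fold change of TAM against MDSC for each gene, in Shp2f/f (grey) and Shp2f/fLysMcre (green), with bars of 1 SE; filled points passed the adjusted p of 0.05. Egr2, Egr3, Nr4a2 and Nr4a3 lay above 2 on the log2 scale in both genotypes, and Nr4a1, Ier2, Ier5 and Btg2 lay nearer to 0.

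The other lists were read in the same contrast. In Shp2f/f, 5 of 9 AP-1 genes were called higher and 2 lower in TAM, 26 of 30 other immediate early genes higher and 4 lower, 21 of 30 dissociation genes higher and 6 lower, and 12 of 13 heat shock genes higher. In Shp2f/fLysMcre these counts were 9 of 9, 27 of 30, 25 of 30 and 10 of 13 called higher. Jun, at 404 CPM in TAM and 462 CPM in MDSC of Shp2f/f, was lower in TAM by 0.19 on the log2 scale, whereas Maff was higher by 3.08. Genes of the dissociation response were also abundant in the spleen cells, whose suspension was made with strainers, with a summed level of 10834 to 12502 CPM in MDSC and 16611 to 22857 CPM in TAM. Cell type and digestion cannot be told apart in these values, and the part of the monocyte and B cell transcripts of MDSC in them was not tested.

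Levels can be compared between genes only per length. In CPM per kilobase of exon, Ier3 was the highest of the 10 in TAM of Shp2f/f at 193 CPM per kilobase, followed by Nr4a1 at 164 and Ier2 at 120, and Egr3 was the lowest at 4.36. In TAM of Shp2f/fLysMcre Ier3 reached 367 CPM per kilobase, above 99.3% of the genes tested, and Nr4a1, Btg2 and Ier2 lay at 193, 190 and 184. In MDSC of Shp2f/f Nr4a1 was the highest at 210 CPM per kilobase, above 98.6% of the genes, and Nr4a3 the lowest at 0.162, above 16.5%. The order of the 4 groups within a gene differed from gene to gene. For Egr1, Egr2 and Ier3 it ran from MDSC of Shp2f/f over MDSC of Shp2f/fLysMcre and TAM of Shp2f/f to TAM of Shp2f/fLysMcre, and only the 2 MDSC groups of Ier3 overlapped. For Egr3, Nr4a2 and Nr4a3 the highest group was TAM of Shp2f/f, and the 2 MDSC groups overlapped. For Ier2, Ier5 and Btg2 the highest group was TAM of Shp2f/fLysMcre, although for Ier2 it overlapped MDSC of Shp2f/fLysMcre. The highest mean of Nr4a1 was in MDSC of Shp2f/f, which overlapped both MDSC and TAM of Shp2f/fLysMcre.

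Together the 10 genes made up 2299 to 2384 CPM in TAM of Shp2f/f and 3259 to 3497 CPM in TAM of Shp2f/fLysMcre, and 1750 to 2144 CPM in the 4 MDSC libraries. With levels centred within each cell type, the mean of the 10 genes over the 10 libraries was followed closely by Egr2 (Pearson r = 0.941), Egr1 (0.911) and Ier2 (0.894) and weakly by Nr4a3 (0.338) and Egr3 (0.264), and Nr4a2 ran against it (-0.324). Among 10065 other genes that averaged 5 CPM or more, those most like this mean were Itga9 (r = 0.988), Kdr (0.987), Trpv4 (0.986), Cbr1 (0.985) and Tmem119 (0.985). Itga9, an integrin subunit, was at 179 and 292 CPM in TAM of Shp2f/f and Shp2f/fLysMcre and at 3.85 and 6.07 CPM in MDSC. Each of the 10 genes is part of the mean it was set against, which raises its r, whereas the other genes are not part of it. The correlations describe 10 libraries that share 2 cell types and 2 genotypes.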

How the data were processed

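RNA from sorted or bead-isolated myeloid cells was made into stranded poly(A) libraries and sequenced in pairs. Per the submitters' processing notes the reads were trimmed with Cutadapt 2.5, aligned to GRCm38 with STAR 2.7.3a and counted per Ensembl gene with featureCounts of Subread 1.6.2. The authors deposited raw counts, used for every test here. They also deposited a normalized signal, the counts divided by 1 DESeq2 size factor per library, which served only to check the counts. The strand setting of the counting was not given in the sources used here.

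The test was the quasi-likelihood test of edgeR 4.0.16, run in R 4.3.3 (filterByExpr, TMM scaling, Benjamini-Hochberg adjustment), within a cell type for the genotypes and over all 10 libraries for the other contrasts. CPM for the text used TMM factors over all libraries, and list sums used total counts. Symbols, positions and transcript features came from GENCODE M21 on GRCm38, which matched 99.7% of the identifiers. The procedure was tested on simulated data, in which few genes were changed and all genes of a comparison varied equally. Recovery holds for that setting and may differ in the real libraries. Of the genes given an absolute log2 fold change of 1 there, it recovered 92% in TAM and 30% in MDSC for the genotypes. For the difference between cell types it recovered 41%, and for TAM against MDSC 78% in Shp2f/f and 70% in Shp2f/fLysMcre. At an absolute log2 fold change of 2 these values were 99%, 92%, 84%, 88% and 95%. A gene not called in MDSC was therefore not shown to be unchanged. Alternatives were DESeq2 1.42.0, other scalings and filters, voom of limma 3.58.1, a replicate term and leaving out each library.

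The 10 genes and all gene lists were chosen with earlier results of these data known. Named were the 10 genes, their relatives and corepressors, Ptpn11 and Lyz2, from each other list up to 2 called genes per direction, by size of change and averaging 5 CPM or more, and the 5 genes most correlated with the mean of the 10. Xist, Ly6g, Csf1r and the within-library ratios were chosen after their values had been seen. Replicate pairs differed by more than counting noise (chi-square per degree of freedom 4.63 to 64.5), so every library counted as 1 replicate. The value of 1 gene that this rule names is not reported here.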

Additional observations from a re-analysis of the deposited data

Results flagged for a closer look

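For 4 of the 10 genes the genotype effect differed between the cell types by the test of the difference itself. The same test called 24.9% of 16581 genes. It also called Ptpn11, at -0.92 (edgeR adjusted p = 0.00045), from -1.24 in TAM and -0.29, not called, in MDSC. The part of this in the values of the 4 genes was not tested. The log2 fold change of Shp2f/fLysMcre against Shp2f/f was higher in TAM than in MDSC by 1.04 for Btg2, 0.73 for Ier5 and 0.69 for Ier3. For Egr3 the difference was -1.09, from a log2 fold change of -0.41 in TAM and of 0.70 in MDSC, where it was not called. The calls of Btg2 and Ier5 did not depend on any single library, whereas those of Ier3 and Egr3 were lost without any 1 TAM library. Ier3 also lost its call with total-count scaling (0.513, edgeR adjusted p = 0.123). Egr3 lost it in voom with sample weights (-1.114, adjusted p = 0.0804). Groups of 2 and 3 libraries are too small for a test of single outlying libraries.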

How the results depend on the processing

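In TAM all 10 genes kept their direction under every alternative, and their calls under all but the fit of all 10 libraries, where 8 were called and all genes called numbered 4837 in place of 7257. In MDSC, where 0 of the 10 were called, DESeq2, the replicate block and the fit of all 10 libraries each called 1 (Egr1), and all genes called numbered 1256, 2674 and 2666 in place of 633, and 130 with no filter on low counts. Leaving out 1 MDSC library gave 0 to 2 of the 10 and 1 to 4406 genes. In each such fit a lone library was assumed to vary like the other group. For the difference between cell types, where 4 of the 10 were called, leaving out 1 library gave 2 to 6 of the 10 and 2446 to 7023 genes. DESeq2 and the fit with no filter called 6 of the 10, against 28.4% and 12.3% of all genes, and the replicate block 3, against 21.6%, with Egr3 no longer called (adjusted p = 0.0844). The counts for TAM against MDSC stayed at 8 or 9.

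The replicate block, a term for replicate numbers, also brought the call of Ier5l in TAM (0.529, adjusted p = 0.0427) and changed no other call of the 10 genes, their relatives, Ptpn11 and Lyz2, the genes for which it was computed one by one. Deviations of same-numbered libraries correlated at 0.293 between the MDSC groups and at -0.133, 0.0512 and 0.022 between the TAM groups. Between MDSC and TAM of the same genotype they correlated at 0.038 and 0.0511 in Shp2f/f and at -0.0266 and -0.125 in Shp2f/fLysMcre. Not every library correlated best with its own number, and the numbers were not taken as pairs. MDSC and TAM came from the same mice by the paper, so a dependence between their libraries remains possible in the tests over both cell types.

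Some differences, none of them called in the main result, changed direction. Over the fits without 1 library, the genotype difference in MDSC ran from -0.235 to 0.023 for Nr4a1 on the log2 scale, from -0.423 to 0.130 for Nr4a2, from -0.157 to 1.585 for Nr4a3, from -0.076 to 0.311 for Ier2 and from -0.086 to 0.443 for Ier3. Btg3 in TAM turned to -0.067 with total-count scaling and ran from -0.080 to 0.218 without 1 library. TAM against MDSC in Shp2f/fLysMcre gave Nr4a1 0.002 with DESeq2 and 0.003 with its size factors, and Ier2 -0.162 with total-count scaling. Without 1 library they ran from -0.179 to 0.116 and from -0.154 to 0.272. The difference of effects for Egr1 was -0.144 with total-count scaling and ran from -0.193 to 0.316 without 1 library, and that for Egr2 from -0.363 to 0.175. The causes were not tested. Each of the 10 genes had at least 420 counts in every TAM library, whereas Nr4a3 had 31 to 120 in MDSC, which limits its precision there.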
